A study of Mus musculus with 4 samples.

Results

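Glycolysis carries glucose to pyruvate, and the pyruvate then goes either to lactate or into the mitochondrion. The expression of 40 genes of this route was examined in mouse embryonic stem cells (mESCs) with and without an intact Bmal1 gene. The genes were chosen by name and were found by their Ensembl identifiers among the 37310 genes of the deposited table, where each of the 40 had 1 row. They are 2 glucose transporters, 18 genes of the enzymes of the glycolytic chain and its side branches, 4 genes of the Pfkfb family, 4 lactate genes, and 12 genes that control or carry the entry of pyruvate into the mitochondrion. All 40 had a mean normalized value of at least 10 and were tested.

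The series compared mRNA of 2 libraries labelled wild-type with mRNA of 2 libraries labelled Bmal1-/-, and these 4 libraries are the whole series. Both groups were the JM8 line, which comes from the C57BL6/N mouse strain, grown without feeder cells on gelatin in N2B27 medium with LIF, 1 µM PD0325901 (an inhibitor of Mek) and 3 µM CHIR99021 (an inhibitor of Gsk3), the medium called 2i + LIF. Per the study's methods, the Bmal1-/- cells were 1 clone obtained with CRISPR/Cas9, with insertions or deletions in both alleles of an early exon, so that the clone and the mutation cannot be told apart. The 2 libraries of a label are biological replicates of 1 line. The p-values here rest on the spread between such replicates, for each gene drawn towards a trend over all genes. They do not measure a spread between clones.

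Glucose enters the cell through Slc2a transporters and is phosphorylated by hexokinase, and a chain of enzymes then splits and oxidises it to pyruvate with a net gain of ATP. Lactate dehydrogenase interconverts pyruvate and lactate, while the mitochondrial pyruvate carrier and the pyruvate dehydrogenase complex lead pyruvate into the citric acid cycle, under the control of kinases (Pdk) that switch the complex off and phosphatases (Pdp) that switch it on. Pluripotent cells are known for high glycolytic activity, and naive mESCs in 2i + LIF use both glycolysis and respiration. Bmal1, encoded by Arntl, is a transcription factor of the circadian clock that binds with Clock to E-box elements.

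The libraries held between 21504265 and 23329034 reads on genes, and 3 reads corresponded to a normalized value of 2.82 to 3.19. Arntl itself stood at 678 and 733 under the wild-type label and at 556 and 590 under the Bmal1-/- label, or 81.2% of wild-type (log2 fold change -0.30, SE 0.07, adjusted p 0.0011, limma with Benjamini-Hochberg adjustment). Since small insertions or deletions need not remove the mRNA, its level does not identify the genotype, and libraries are named by their labels. The study detected neither Bmal1 mRNA by RT-qPCR nor Bmal1 protein by Western blot in its Bmal1-/- cells. The Arntl values here differ from that RT-qPCR result, and the reason was not tested. The 9 naive pluripotency markers examined were all abundant and differed between labels by at most 0.36 on the log2 scale, with Pou5f1 between 26483 and 29164 in the 4 libraries. Of these 9, 8 had an adjusted p under 0.05 in limma, compared with 52.6% of all genes tested. Of the 8, 4 were higher, among them Nanog (0.25), and 4 were lower, among them Pou5f1 (-0.13). Markers of other states also moved with the label. The 4 two-cell-like markers (Zscan4c, Zscan4d, Zscan4f and Dub1) were all higher, with summed values of 135 and 182 in wild-type against 1983 and 1966 in Bmal1-/-. The summed values of 6 neural markers were 3821 and 3548 in wild-type and 2177 and 2039 in Bmal1-/-, with 2 of the 4 tested lower (Pax6 and Tubb3) and Fabp7 at 0 throughout. Most of these sums was Tubb3, with 2785 and 2512 in wild-type and 1192 and 1088 in Bmal1-/-. Of the primitive endoderm markers, 5 were tested, 3 were higher and 1 (Sox7) was lower, with sums of 638 and 611 against 762 and 726. Most of these sums was Lama1, with 468 and 422 in wild-type and 566 and 535 in Bmal1-/-. Gata6 and Dab2 were under the filter and differed in direction. Gata6 had 6.32 and 6.37 in wild-type and 0 and 2.86 in Bmal1-/-, and Dab2 had 5.27 and 8.50 against 13.2 and 12.4. Of the primed pluripotency markers, the 2 tested (Dnmt3b and Lef1) were lower, with sums of 2836 and 2579 against 2140 and 2230 and Pou3f1 at 0. Most of these sums was Dnmt3b, with 2631 and 2421 in wild-type and 2063 and 2160 in Bmal1-/-. The summed fibroblast markers lay between 69.5 and 108, with Dcn and Lum at 0 in every library. The part of these markers in the differences described next was not tested.

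Across the 40 genes, 27 passed the test (67.5%), of which 8 were higher and 19 were lower in the libraries labelled Bmal1-/-. Among all 14510 genes tested, 52.6% passed it, 24% higher and 28.6% lower, so the count of higher members (20%) lay near the background and the count of lower members (47.5%) above it. The members were chosen with earlier results of these data known, so this comparison describes the list and is no test of it. The changes were mostly small. Of the 40 members, 3 passed 2-fold with an adjusted p under 0.05 (limma on log2(value + 1), Benjamini-Hochberg adjustment over all genes tested). That share was near the 7.21% of all genes. The 3 were Ldhb, which fell, and Pdp2 and Mpc1, which rose. The values of the labels did not overlap for 34 members, 11 higher and 23 lower, compared with 76% of all genes. The median log2 fold change was -0.15 for the members and -0.03 for all genes tested. Together, the 40 genes held 1.39% and 1.40% of the reads on genes under the wild-type label and 1.30% and 1.27% under the Bmal1-/- label. These are bulk measurements of RNA, in which fewer cells with a transcript and less transcript per cell cannot be told apart.

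**Figure D1:**
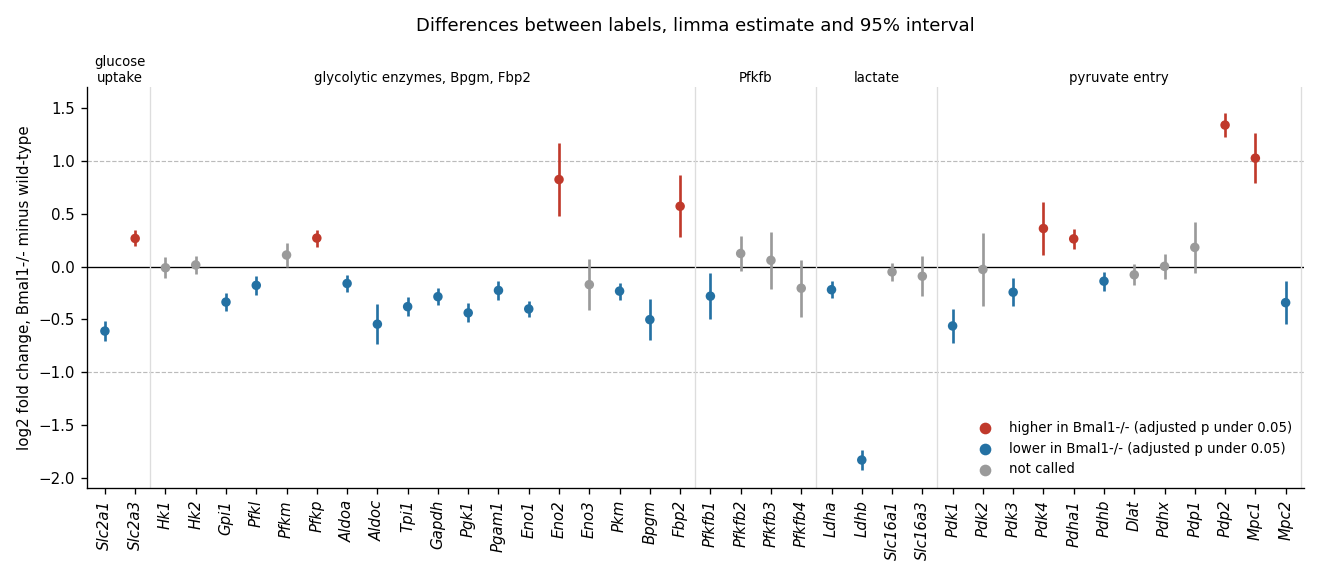
Log2 fold change of each of the 40 genes, Bmal1-/- minus wild-type, as points with 95% intervals from limma, in the order of the pathway and coloured by call. Most points of the enzyme group lie between 0 and -0.54, while Ldhb at -1.83 and Pdp2 at 1.34 stand farthest from 0.

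The counts of higher and lower calls among the members varied with the scale. They were 8 higher and 19 lower with median-ratio size factors, 9 and 17 with equal totals and 8 and 16 with quantile normalization. Among the scales used, the balance turned only under scaling to Ywhaz, chosen after the data were seen. When the libraries were scaled to Ywhaz, a reference gene of the study's RT-qPCR, instead of by the authors' factors, 12 members were higher and 9 lower, and the median log2 fold change of all genes moved to 0.115 with that of the members at -0.0024. On the authors' scale Ywhaz itself was lower in Bmal1-/- (log2 fold change -0.15, SE 0.04, adjusted p 0.0051), a call lost in 6 of 17 alternatives, among them the removal of the first Bmal1-/- library (-0.10). Under this scaling 10 calls were lost, all of lower genes (Pfkl, Aldoa, Gapdh, Pgam1, Pkm, Ldha, Pfkfb1, Pdk3, Pdhb and Mpc2), and 4 genes not called on the authors' scale were higher (Hk2, Pfkm, Pfkfb2 and Pdp1). This scaling shifted all genes alike, and under it 33.9% of all genes tested were called higher and 11.1% lower.

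The members were also divided by level. Of the 22 members with a mean value of at least 1000, 4 were higher (18.2%) and 13 lower (59.1%), with a median log2 fold change of -0.17. In the same fit, 23.2% of the 4770 genes at that level were higher and 43.9% lower, so lower calls were also common among other genes at that level. Of the 18 members under a mean of 1000, 4 were higher (22.2%) and 6 lower (33.3%), with a median of -0.06, compared with 24.5% higher and 21.1% lower among the 9740 genes at that level. The most abundant members ranked among the first genes of the table by mean value, with Gapdh at rank 12, Pkm at 16, Aldoa at 49, Slc2a3 at 73, Eno1 at 92 and Ldha at 177.

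**Figure D2:**
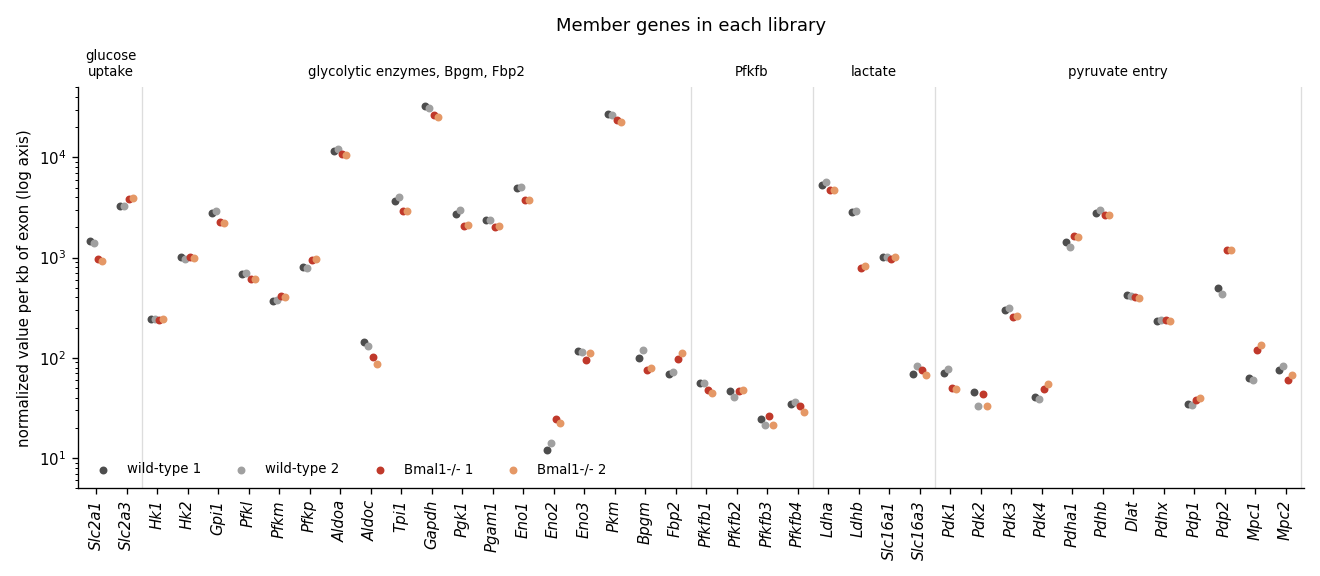
Normalized value per kb of exon of each of the 40 genes in the 4 libraries, on a log axis, in the order of the pathway. Levels spanned from 12.1 for Eno2 in a wild-type library to 32369 for Gapdh, and for most genes the replicates of a label lay close together.

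Sequences just upstream of the genes are given for 5 members on which the results turn: the 3 that passed 2-fold (Ldhb, Pdp2 and Mpc1), Ldha as the partner of Ldhb, and Slc2a1 as the transporter that fell. Each window runs from 250 bases before to 50 after a RefSeq transcription start in GRCm38.p6, another build than the mm9 of the expression data. Capitals mark CACGTG, the letters of the E-box, and ACGTG and GCGTG, the core letters of the hypoxia response element, on either strand, where the reverse strand shows as CACGT or CACGC, and ACGTG is contained in CACGTG.
Ldhb promoter, chr6:142507908-142508207, - strand: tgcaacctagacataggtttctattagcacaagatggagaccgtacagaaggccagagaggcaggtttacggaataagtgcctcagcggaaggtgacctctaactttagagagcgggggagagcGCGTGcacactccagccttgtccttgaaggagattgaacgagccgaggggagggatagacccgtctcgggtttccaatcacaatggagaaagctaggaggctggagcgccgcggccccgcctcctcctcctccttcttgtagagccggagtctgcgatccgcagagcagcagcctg
Ldha promoter, chr7:46845554-46845853, + strand: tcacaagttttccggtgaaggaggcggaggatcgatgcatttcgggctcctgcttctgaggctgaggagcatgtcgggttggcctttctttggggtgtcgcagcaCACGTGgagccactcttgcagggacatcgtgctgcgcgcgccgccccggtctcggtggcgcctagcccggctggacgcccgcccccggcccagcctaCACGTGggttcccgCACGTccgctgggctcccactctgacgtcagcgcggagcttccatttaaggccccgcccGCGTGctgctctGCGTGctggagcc
Pdp2 promoter, chr8:104591222-104591521, + strand: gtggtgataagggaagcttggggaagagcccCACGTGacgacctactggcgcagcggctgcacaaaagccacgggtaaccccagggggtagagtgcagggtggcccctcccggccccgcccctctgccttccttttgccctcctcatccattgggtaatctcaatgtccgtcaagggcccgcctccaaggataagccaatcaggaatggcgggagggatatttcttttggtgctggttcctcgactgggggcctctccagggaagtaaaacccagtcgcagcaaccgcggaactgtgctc
Mpc1 promoter, chr17:8283537-8283836, + strand: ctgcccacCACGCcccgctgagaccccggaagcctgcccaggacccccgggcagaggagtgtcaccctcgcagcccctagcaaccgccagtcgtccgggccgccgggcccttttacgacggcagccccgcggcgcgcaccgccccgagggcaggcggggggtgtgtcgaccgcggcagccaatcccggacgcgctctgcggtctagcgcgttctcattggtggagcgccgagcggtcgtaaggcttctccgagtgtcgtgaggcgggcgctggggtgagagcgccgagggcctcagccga
Slc2a1 promoter, chr4:119108495-119108794, + strand: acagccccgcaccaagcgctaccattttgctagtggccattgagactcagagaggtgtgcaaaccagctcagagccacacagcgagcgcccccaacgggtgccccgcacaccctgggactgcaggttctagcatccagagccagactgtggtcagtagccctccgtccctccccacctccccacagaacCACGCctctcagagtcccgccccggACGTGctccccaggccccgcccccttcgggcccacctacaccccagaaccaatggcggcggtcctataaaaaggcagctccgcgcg

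The Ldha window held CACGTG at 2 places, starting 145 and 48 bases before the start site, and the Pdp2 window held it once, 219 bases before. Neither the Ldhb window nor the Mpc1 or Slc2a1 window shown held these letters. Ldha and Mpc1 each have a second window, not shown, without CACGTG. Windows were found for 38 of the 40 members. CACGTG occurred in any window of 8 of them (21.1%), against 11.8% of the 9694 genes tested that had a window and 8.09% of all 27025 genes with a window. ACGTG occurred in 20 members (52.6%), against 29.2% of the genes tested and 21.8% of all genes. GCGTG occurred in 25 members (65.8%), against 55.9% of the genes tested and 35.2% of all genes. Genes with more windows have more places for a match, and the 38 members had 58 windows, the 27025 genes 32851. Counted per window, CACGTG stood in 13.8% of member windows and 7.15% of all windows. For ACGTG these shares were 41.4% and 19.6%, and for GCGTG 53.4% and 32.4%. The 8 members with CACGTG were Fbp2, Ldha, Pdk2, Pdp2, Pfkfb2, Pfkfb3, Pfkm and Slc16a1. Of these 8, 3 passed the expression test, Pdp2 and Fbp2 higher and Ldha lower, while 23 of the 30 members without it passed, 5 higher and 18 lower. Among all genes tested that had a window, 58.4% of those with CACGTG and 54.0% of those without it passed. These are counts of letters, no binding was measured, and the cross of letters with calls was chosen after the values were seen.

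The 2 glucose transporters moved in opposite directions. Slc2a1 (chr4:118781316-118809935, mm9), the widely expressed glucose transporter Glut1, had normalized values of 4207 and 4003 in the wild-type libraries and of 2762 and 2616 in those labelled Bmal1-/-. Both mutant values lay well below both wild-type values, at 65.5% of wild-type (log2 fold change -0.61, SE 0.05, adjusted p 7.3e-10). Slc2a3 (chr6:122677827-122751658), the high-affinity transporter Glut3, had 23530 and 23435 in wild-type and 28117 and 28416 in Bmal1-/-. It rose in both libraries by a smaller step (0.27, SE 0.04, adjusted p 3.5e-06). Both calls kept their direction and stayed past the threshold in all 18 alternative analyses. Per kb of exon, which allows a comparison between genes, Slc2a1 made up 31.2% and 30.3% of the pair in wild-type and 19.96% and 18.95% in Bmal1-/-. The summed level of the pair was 4722 and 4638 per kb in wild-type and 4849 and 4839 in Bmal1-/-, slightly higher. The ratio of Slc2a3 to Slc2a1 per kb thus went from 2.20 and 2.31 to 4.01 and 4.28. An exact permutation test of 2 libraries against 2 cannot give a p below 0.333, and shares and ratios are therefore given as values.

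**Figure D3:**
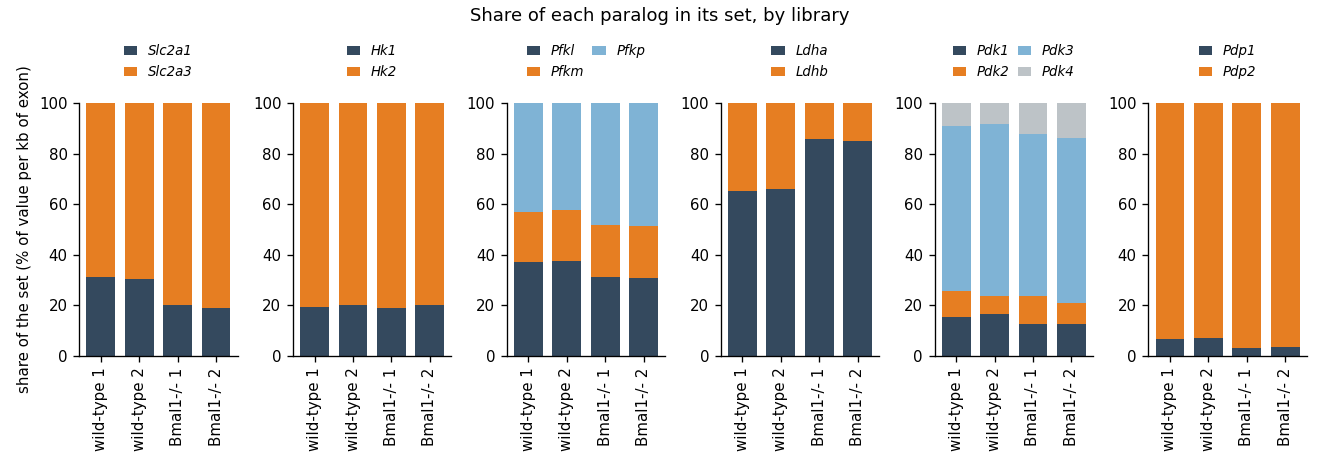
Share of each paralog in the summed normalized value per kb of exon of its set, for 6 sets of paralogs, with 1 bar per library. Ldha took 65.2% and 65.9% of its pair under the wild-type label and 85.6% and 85.1% under the Bmal1-/- label, Slc2a1 gave way to Slc2a3, and the shares of the hexokinase pair overlapped between the labels.

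Of the 18 genes of glycolytic enzymes and side branches, 11 fell, 3 rose and 4 did not pass the test, and their median log2 fold change was -0.20. These shares were 61.1% lower and 16.7% higher, beside 28.6% and 24% of all genes tested. Most of the 18 had a mean value of at least 1000, a level at which 43.9% of all genes were lower. Hexokinase commits glucose to the cell. Hk2, the main hexokinase gene here by level, had 6086 and 5725 in wild-type and 6057 and 5884 in Bmal1-/-, values that overlapped between the labels (0.02, 95% interval -0.07 to 0.10). Hk1 overlapped too, with a log2 fold change of -0.01 (interval -0.11 to 0.09) and a sign that changed with the scaling. The share of Hk2 in the pair, per kb, was 80.8% and 79.8% in wild-type and 81.1% and 80.0% in Bmal1-/-. Gpi1, the isomerase that follows, fell to 79.2% of wild-type (-0.34, SE 0.04, adjusted p 6.2e-07). Its exons share 741 bases with a long noncoding RNA on the opposite strand, Gm17327, whose own values were between 10.3 and 15.8. Exon bases were also shared with opposite-strand genes by Hk1 (157 bases, 2210417K05Rik), Slc2a1 (105 bases, Gm12868) and Tpi1 (34 bases, Spsb2), and these partners had values of at most 121.

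Phosphofructokinase, the main point of control of the chain, is encoded by 3 genes that did not move together. Pfkp (platelet type) had 7562 and 7368 in wild-type and 8933 and 9080 in Bmal1-/-, both higher (0.27, SE 0.04, adjusted p 6.2e-06). Pfkl (liver type) fell slightly, to 88.5% of wild-type (-0.18, adjusted p 0.0019), a call that was lost in limma without its variance trend and when the libraries were scaled to Ywhaz. Pfkm (muscle type) had a log2 fold change of 0.11 that missed the threshold (adjusted p 0.093) and passed it in 4 of 18 alternatives (equal totals 0.17, quantile normalization 0.15, edgeR 0.13 and scaling to Ywhaz 0.26). Per kb, Pfkp went from 43.1% and 42.2% of the set to 48.1% and 48.9%, and Pfkl from 37.0% and 37.4% to 31.2% and 30.9%. Of the exon bases of Pfkp, 372 are shared with Pitrm1 on the opposite strand, which had values between 2487 and 2755.

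In the later steps, from the splitting of the sugar to pyruvate, the abundant enzyme genes were lower. Aldoa, the main aldolase gene, was at 89.6% of wild-type (-0.16, adjusted p 0.0017). Aldoc, its minor paralog, had 467 and 428 in wild-type and 330 and 284 in Bmal1-/-, both lower (-0.54, SE 0.09, adjusted p 3.7e-05). Triosephosphate isomerase, Tpi1 (chr6:124760604-124764314), had 8024 and 8841 in wild-type and 6504 and 6449 in Bmal1-/-, at 76.8% (-0.38, SE 0.04, adjusted p 5.0e-07). Phosphoglycerate kinase, Pgk1 (chrX:103382439-103399038), an enzyme of the chain that yields ATP, had 6130 and 6623 against 4671 and 4737, again with no overlap (-0.44, SE 0.04, adjusted p 5.1e-08). Pgam1, the mutase after it, was at 85.6% (-0.22, adjusted p 0.00012). Bpgm, which makes bisphosphoglycerate in a side branch, had 361 and 429 in wild-type and 272 and 283 in Bmal1-/-, at 70.3% (-0.50, SE 0.09, adjusted p 0.00015).

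The enolase genes moved in different directions. Eno1 (chr4:149610830-149622988), which held between 96.6% and 97.6% of the enolase level per kb, had 26302 and 27464 in wild-type and 20379 and 20338 in Bmal1-/-. It fell to 75.7% of wild-type (-0.40, SE 0.04, adjusted p 2.4e-08). Eno2, the enolase typical of neurons, stood at a low level, with 56.9 and 66.9 in wild-type and 115 and 106 in Bmal1-/-. It rose to 178% of wild-type (0.83, SE 0.16, adjusted p 0.00026), the opposite direction to Eno1. Its share of the enolase level per kb was 0.24% and 0.27% in wild-type and 0.62% and 0.57% in Bmal1-/-. Eno3, the muscle enolase, had a log2 fold change of -0.17 and did not pass the test (interval -0.41 to 0.07, adjusted p 0.23). Pkm, which makes pyruvate, had 64462 and 63723 in wild-type and 55828 and 53378 in Bmal1-/-, at 85.2% (-0.23, SE 0.04, adjusted p 3.7e-05). Fbp2, a fructose bisphosphatase that works against phosphofructokinase, had 90.6 and 95.6 in wild-type and 130 and 149 in Bmal1-/-, both higher (0.57, SE 0.14, adjusted p 0.0019), a call lost without the second Bmal1-/- library, where the log2 fold change was 0.47.

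Gapdh (chr6:125111871-125116485), the dehydrogenase in the middle of the chain, is also a reference gene of the study's RT-qPCR. Its values were 72927 and 69660 in wild-type and 59596 and 57481 in Bmal1-/-, with both mutant libraries lower, at 82.1% of wild-type (-0.28, SE 0.04, adjusted p 4.3e-06). The oligonucleotides the study used to amplify it are shown because they place the amplicon on this transcript.
Gapdh sense oligonucleotide: cgtagacaaaATGgtgaaggtcgg
Gapdh antisense oligonucleotide: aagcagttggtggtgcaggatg
Capitals mark the start codon. On a Gapdh transcript of 1272 bases, the sense oligonucleotide covered positions 83 to 106 and the antisense one positions 535 to 556, for a product of 474 bases. Of the other reference genes, Actb fell as well (-0.23, SE 0.04, adjusted p 4.2e-05). The calls of Gapdh, Pkm, Aldoa and Actb were lost both under quantile normalization and when libraries were scaled to Ywhaz, with Gapdh at -0.04 and Actb at -0.01 under the former. Those of Aldoa and Actb were also lost in limma without its variance trend. Gapdh has 46 annotated pseudogenes with at least 90% identity over 100 or more aligned bases, whose summed values amounted to between 0.209% and 0.301% of its own value, so that few reads were assigned to these copies, and how reads shared with them were counted is not given in the sources used here.

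The Pfkfb enzymes set the level of a fructose bisphosphate that stimulates phosphofructokinase and differs from the one phosphofructokinase makes. Of the 4 Pfkfb genes, only Pfkfb1 passed the test. It had 227 and 226 in wild-type and 192 and 181 in Bmal1-/- (-0.28, SE 0.11, adjusted p 0.032), and the call was lost in 9 of 17 alternative analyses, among them each removal of 1 library (-0.32 to -0.24). Its exons share 123 bases with Apex2 on the opposite strand, which had 614 and 631 in wild-type and 486 and 507 in Bmal1-/-. Pfkfb2, Pfkfb3 and Pfkfb4 had log2 fold changes of 0.12, 0.06 and -0.20, with adjusted p of 0.20, 0.72 and 0.19 and 95% intervals that lay between -0.47 and 0.33. Of these, Pfkfb2, whose exons share 154 bases with Yod1 on the opposite strand (43.6 to 109), passed without the first wild-type library (0.22), and Pfkfb4 passed under quantile normalization (-0.35).

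Among the lactate genes, Ldhb showed the largest change of the 40 genes. Ldhb (chr6:142438769-142456477) encodes the heart-type subunit of lactate dehydrogenase. It had 4457 and 4630 in wild-type and 1246 and 1305 in Bmal1-/-, far apart and at 28.1% of wild-type (-1.83, SE 0.05, adjusted p 4.0e-17). The estimate stayed between -1.83 and -1.69 in the alternative analyses with all libraries, and leaving out 1 library gave -1.87 to -1.80. Ldha (chr7:54096845-54110997), the muscle-type subunit, had 15883 and 17005 in wild-type and 14040 and 14209 in Bmal1-/-, a much smaller drop to 85.9% (-0.22, SE 0.04, adjusted p 0.00011), lost as a call in limma without its variance trend and when libraries were scaled to Ywhaz. The summed level of both per kb went from 8165 and 8652 to 5502 and 5597. The ratio of Ldha to Ldhb per kb was 1.88 and 1.93 in wild-type and 5.93 and 5.73 in Bmal1-/-. One annotated pseudogene copy of Ldhb held values between 8.50 and 17.9, at most 0.83% of those of Ldhb. The lactate exporters did not pass the test. Slc16a1 (Mct1) had 4511 and 4536 in wild-type and 4274 and 4467 in Bmal1-/- (-0.05, interval -0.14 to 0.04), and Slc16a3 (Mct4) a log2 fold change of -0.09 (interval -0.28 to 0.10). The exons of Slc16a3 share 831 bases with Csnk1d on the opposite strand, which stood at 2883 to 3247, above the 358 to 438 of Slc16a3.

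**Figure D4:**
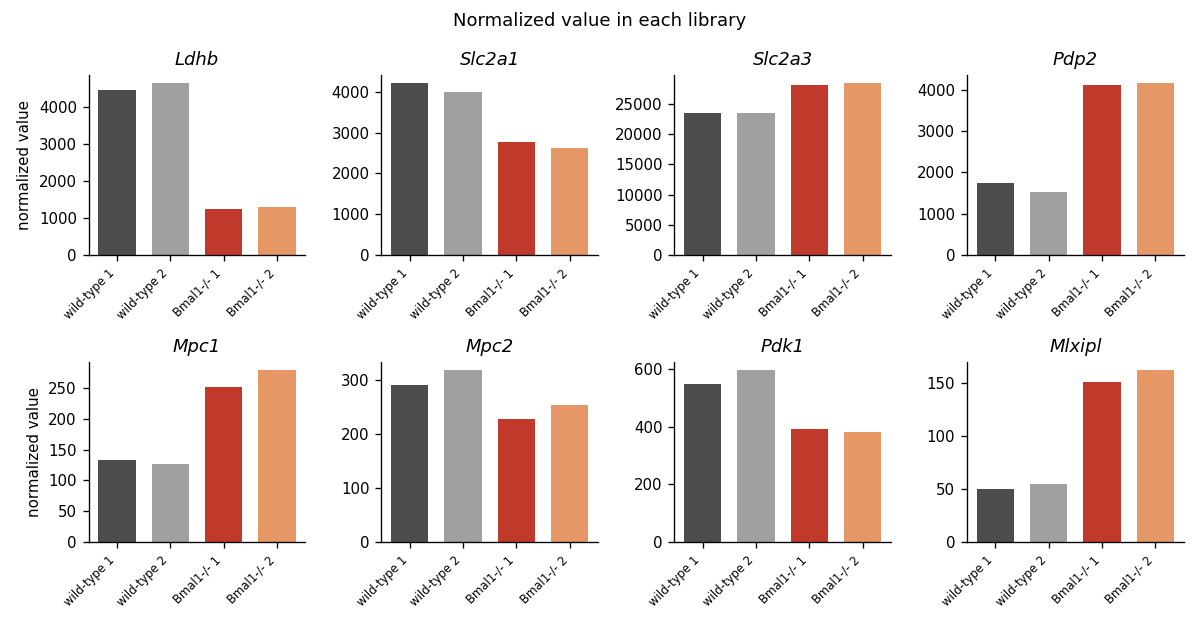
Normalized values in the 4 libraries of 7 members with changes at entry and exit points of the route and of Mlxipl, a glucose-sensing transcription factor, with 1 bar per library and a separate axis from 0 for each gene. Ldhb, Slc2a1, Mpc2 and Pdk1 were lower and Slc2a3, Pdp2, Mpc1 and Mlxipl higher in both libraries labelled Bmal1-/-.

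The 12 genes of pyruvate entry included the other 2 members past 2-fold, and 4 of them rose, 4 fell and 4 did not pass the test. These shares were 33.3% higher and 33.3% lower, beside 24% and 28.6% of all genes tested. The carrier that brings pyruvate across the inner mitochondrial membrane is made of the Mpc1 and Mpc2 proteins. Mpc1 (chr17:8475769-8490526) had 133 and 126 in wild-type and 252 and 279 in Bmal1-/-, at 205% of wild-type with no overlap (1.03, SE 0.11, adjusted p 2.2e-07). Mpc2 (chr1:167391168-167411345) had 291 and 319 in wild-type and 227 and 254 in Bmal1-/-, at 78.9% (-0.34, SE 0.10, adjusted p 0.0063), a call lost in 5 of 17 alternatives, among them the removal of the first Bmal1-/- library (-0.26). The genes of the carrier therefore differed in direction, and the ratio of Mpc1 to Mpc2 per kb was 0.83 and 0.72 in wild-type and 2.02 and 2.01 in Bmal1-/-. The exons of Mpc1 share 480 bases with the noncoding RNA 4930506C21Rik on the opposite strand, which had 12.6 and 10.6 in wild-type and 19.7 and 21.9 in Bmal1-/-. Whether the counting used strand is not given in the sources used here. The estimate for Mpc1 lay just under 2-fold with a pseudocount of 10 (0.98), under quantile normalization (0.95), and without the second wild-type (0.99) or the second Bmal1-/- library (0.95), and it kept its call in all 17 alternatives.

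Within the pyruvate dehydrogenase complex, the subunit genes moved little. Pdha1, the catalytic alpha subunit, had 5356 and 4828 in wild-type and 6128 and 6082 in Bmal1-/-, both higher (0.26, SE 0.05, adjusted p 6.6e-05), a call lost in limma without its variance trend. Its exons share 603 bases with Map3k15 on the opposite strand, which had values between 92.7 and 134. Pdhb, the beta subunit, had a log2 fold change of -0.14 (adjusted p 0.011) that was lost in 9 of 18 alternatives, among them the removal of the second wild-type library (-0.09) and of the first or the second Bmal1-/- library (-0.14 in both cases), and whose sign turned with the scaling to Ywhaz (0.0083). Dlat and Pdhx, of the core of the complex, had -0.08 (interval -0.18 to 0.02) and 0.00 (interval -0.12 to 0.12) and did not pass the test.

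Of the enzymes that switch the complex, the phosphatase gene Pdp2 changed most. Pdp2 (chr8:107115368-107120736), whose product removes the inhibitory phosphate, had 1744 and 1528 in wild-type and 4115 and 4161 in Bmal1-/-. Both mutant values were above both wild-type values, at 253% (1.34, SE 0.05, adjusted p 3.5e-14), and the estimate stayed between 1.34 and 1.49 in the alternative analyses with all libraries. Its paralog Pdp1 had 157 and 153 in wild-type and 172 and 180 in Bmal1-/- (0.18, interval -0.06 to 0.43) and did not pass the test. The share of Pdp1 in the pair per kb went from 6.51% and 7.19% to 3.13% and 3.24%.

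The kinases, which act against the phosphatases, differed among themselves. Pdk1 (chr2:71711281-71741915) had 549 and 597 in wild-type and 393 and 382 in Bmal1-/-, at 67.6% (-0.56, SE 0.08, adjusted p 3.6e-06). Pdk3, which held between 64.4% and 67.8% of the kinase level per kb, fell less, to 84.5% (-0.24, adjusted p 0.0032), a call lost with DESeq2 and with the scaling to Ywhaz. Pdk4 had 144 and 137 in wild-type and 170 and 193 in Bmal1-/-, both higher (0.36, SE 0.12, adjusted p 0.017), a call lost in 4 alternatives, among them the removal of the second Bmal1-/- library (0.27). Pdk2 had -0.03, with replicates that spread from 104 to 144 within wild-type, and no difference was detectable at this depth (interval -0.37 to 0.32). The summed kinase level per kb was 456 and 462 in wild-type and 400 and 396 in Bmal1-/-, while that of the phosphatases was 535 and 472 against 1219 and 1234.

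The neighbouring branches were examined through lists of related genes, which are described by counts beside the 52.6% of all genes that passed the test. Among 9 genes of the pentose phosphate pathway, which makes NADPH and ribose from glucose phosphate, 5 fell and 1 rose, with a median of -0.16. Pgd, the phosphogluconate dehydrogenase, had 9574 and 9035 in wild-type and 6768 and 6765 in Bmal1-/-, both lower (-0.46, SE 0.04, adjusted p 8.6e-09). H6pd, the hexose phosphate dehydrogenase of the endoplasmic reticulum, fell by 0.32 (SE 0.06, adjusted p 0.00029). Among 14 genes of glycogen synthesis and breakdown, 4 rose and 2 fell, with a median of 0.13. Phka1, a subunit of phosphorylase kinase, had 259 and 299 in wild-type and 569 and 523 in Bmal1-/-, both higher (0.97, SE 0.09, adjusted p 1.5e-08). Gbe1, the branching enzyme, had 138 and 78.6 in wild-type and 60.1 and 79.1 in Bmal1-/-, values that overlapped, and its call (-0.59, adjusted p 0.024) was lost in 6 alternatives, among them the removal of the first wild-type (-0.19) or the first Bmal1-/- library (-0.39), while without the second wild-type library it was -0.99. Gys1, glycogen synthase, named here after its values were seen, had 1985 and 2017 against 2931 and 2948 (0.55, SE 0.04, adjusted p 2.7e-09).

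Of 16 genes of other isoforms of the route, many of them typical of liver, testis or muscle, 7 reached a mean of 10. Of these 7, Pdpr, the regulatory subunit of the pyruvate dehydrogenase phosphatase, rose from 920 and 800 to 1216 and 1221 (0.51, SE 0.06, adjusted p 1.6e-06). Slc2a4, the insulin-regulated transporter Glut4, had 27.4 and 29.7 in wild-type and 18.8 and 15.3 in Bmal1-/- (-0.72, SE 0.30, adjusted p 0.047), a call lost in 11 alternatives, among them each removal of 1 library (-0.86 to -0.58).

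**Figure D5:**
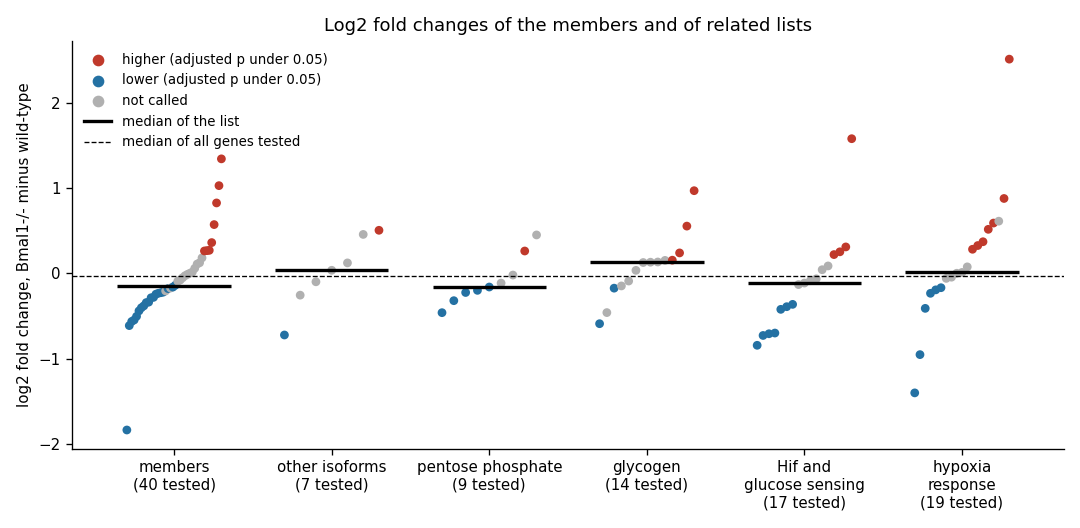
Log2 fold changes, Bmal1-/- minus wild-type, of the 40 members and of 5 lists of related genes, 1 point per gene coloured by call, with the median of each list as a bar and that of all genes tested as a dashed line. The members and the pentose phosphate genes had medians of -0.15 and -0.16, the glycogen genes one of 0.13, and P4ha2 at 2.51 is the highest point.

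Genes that sense oxygen or glucose and regulate this route were also examined, in a list of 17 of which 4 rose and 7 fell (median -0.11). Mlxipl, or ChREBP, a transcription factor that responds to glucose, had 49.5 and 54.2 in wild-type and 151 and 162 in Bmal1-/-, both higher and past 2-fold (1.58, SE 0.15, adjusted p 4.7e-08). The related Mlxip, named after its values were seen, did not pass the test (0.04, adjusted p 0.62 in limma). Per kb of exon, Mlxip had 86.1 and 77.3 in wild-type and 82.6 and 85.7 in Bmal1-/-. Mlxipl was lower, at 9.22 and 10.1 against 28.2 and 30.2. Mycn, which with Myc drives genes of growth and glycolysis, had 1695 and 1613 in wild-type and 901 and 945 in Bmal1-/-, both lower (-0.84, SE 0.06, adjusted p 1.0e-10). Myc and Txnip, a brake on glucose uptake, were lower too, by log2 fold changes of -0.73 and -0.71, and are named after their values were seen. Hif1a, the oxygen-regulated factor that drives many genes of the route, had a log2 fold change of 0.09 (adjusted p 0.14).

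Of 19 genes tested from a list of hypoxia-responsive genes outside glycolysis, 7 rose and 6 fell, with a median of 0.01, and the list did not move in one direction. P4ha2, a prolyl hydroxylase of collagen, had 102 and 112 in wild-type and 631 and 594 in Bmal1-/-, both higher (2.51, SE 0.10, adjusted p 2.7e-14). Car12, a carbonic anhydrase, had 29.5 and 28.7 in wild-type and 6.58 and 16.2 in Bmal1-/- (-1.40, SE 0.37, adjusted p 0.0037), with the call lost in 4 alternatives, among them the removal of the first Bmal1-/- library, without which the log2 fold change was -0.81.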

How the data were processed

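mRNA-seq of 4 libraries was analysed, 2 labelled wild-type and 2 labelled Bmal1-/-. RNA was extracted with TRIzol, and paired-end reads were obtained from TruSeq Stranded mRNA libraries. The submitters' processing notes name bcl2fastq 2.18.0.12, cutadapt 1.9.1, STAR 2.5.2b and mm9. The tool that counted reads and its strand setting are not given in the sources used here. The deposited values are a normalized signal per gene, read counts that the authors divided by a factor of each library (TMM). They were whole multiples of 1 step per library for 100% of values (tolerance 0.01 read), so whole reads were recovered and served edgeR and DESeq2 as alternatives. edgeR called 7682 genes, limma 7639, DESeq2 5226 (36% of those tested) and limma without its variance trend 5060 (34.9%).

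The main test was limma 3.58.1 in R 4.3.3 applied to log2(value + 1) of the 14510 genes whose mean value reached 10, with lmFit and with eBayes allowing a trend of variance with intensity (prior degrees of freedom 18.1). All 4 libraries entered without a covariate, and p-values were adjusted by Benjamini-Hochberg over all genes tested at a threshold of 0.05. Fold changes on this scale understate the change of low genes. Errors are standard errors or 95% intervals of that fit, and depth sets their width for low genes. Shares and ratios of paralogs used values per kb of merged exon (GENCODE annotation of NCBIM37) and were not tested.

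All 40 members are named. Library values are given for members past 2-fold, for the 12 called members with the largest absolute change and for 1 or more members of each paralog set. Of each related list, members past 2-fold and the 2 called members with the largest change are named. The members and lists were chosen with earlier results of these data known. Alternatives were other filters (none, or a mean of at least 1 or 100), pseudocounts of 0.5 and 10, median-ratio size factors, equal totals, quantile normalization, limma without its trend, DESeq2 1.42.0, the quasi-likelihood test of edgeR 4.0.16, a block for the replicate number, and fits that omitted 1 library. Scaling to Ywhaz and a filter at a mean of 1000 were chosen after seeing the data. The code of the fits was run on simulated data with few changed genes and changes of at least 2-fold. That setting differs from the data here and does not bear on the calls reported. Promoter windows are those of RefSeq in GRCm38.p6 and were matched by symbol. The study's RT-qPCR, protein and differentiation data were not analysed here, and 1 gene of the related lists is not reported here.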

Additional observations from a re-analysis of the deposited data

How the results depend on the processing

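Of the 27 members called, 14 kept their direction and their call in all alternatives in which they were tested, 13 lost the call in at least 1, and 1 (Pdhb, at 0.0083 with scaling to Ywhaz) was reversed. Of the 13 not called, 5 were called in at least 1 alternative (Hk2, Pfkm, Pfkfb2, Pfkfb4 and Pdp1). Over all genes tested, 52.6% were called, against 36% with DESeq2 and 34.9% without the variance trend. The number of members called was 27 and lay between 21 and 27 with all libraries and between 23 and 27 without 1 library. A filter at a mean of 1000, chosen after seeing the data, left 22 members, of which 17 were called and 4 were higher. The median log2 fold change of the members, -0.15, moved to -0.088 with equal totals, to -0.072 with quantile normalization and to -0.0024 with scaling to Ywhaz, also chosen after seeing the data, under which 9 members were lower in place of 19. Among members that were not called, 8 changed sign. Hk1 was at 0.0049 with median-ratio size factors, 0.050 with equal totals, 0.032 with quantile normalization, 0.014 with edgeR, 0.021 with DESeq2, 0.14 with scaling to Ywhaz and 0.017 without the first Bmal1-/- library. With scaling to Ywhaz, Slc16a1 was at 0.096, Pdk2 at 0.12, Slc16a3 at 0.055 and Dlat at 0.069. With equal totals, Slc16a1 was at 0.010 and Pdk2 at 0.034, and with quantile normalization Pfkfb3 was at -0.047. Leaving out 1 library gave ranges of -0.26 to 0.21 for Pdk2, -0.075 to 0.20 for Pfkfb3, -0.018 to 0.024 for Pdhx, -0.028 to 0.060 for Hk2, -0.037 to 0.017 for Hk1 and -0.21 to 0.029 for Slc16a3. The cause of these changes was not tested. With the replicate number as a block, 27 members were called, 8 higher and 19 lower, and no call among the members changed, while 7949 genes were called in all. The deviations of same-numbered libraries correlated at -0.02 across 14510 genes. The library titles carry an experiment number under both labels. This correlation over all genes cannot show whether same-numbered libraries came from 1 experiment. With 2 libraries a label, 1 clone and no batch given, the mutation, the clone and the culture cannot be told apart.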
